A study of Mus musculus with 244 samples.

Results

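The collagens are the triple-helical proteins of the extracellular matrix, and the 44 genes described here were all the entries of the count table whose symbols have the form Col, a type number, the letter a and a chain number, out of 25122 genes. They comprised 11 fibrillar genes, 6 type IV genes, 2 multiplexin genes, 6 type VI genes, 9 genes of fibril-associated collagens (FACIT), 4 genes of transmembrane collagens and 6 others. The study isolated single oocytes and single follicular somatic cells from CD-1 mice at postnatal day 6, from follicles that had been staged under the microscope (primordial, transitioning to primary, primary or secondary), and sequenced them by SMART-Seq2, a plate-based method that reads whole transcripts of single cells. The count table held 59 oocytes and 185 somatic cells (in order of stage 13, 19, 20 and 7 oocytes with 40, 47, 56 and 42 somatic cells), all from pooled ovaries of mice for which the labels name no transgene and no treatment. Follicles of the first 2 stages were dissociated with Accutase for a shorter time than those of the later stages. The labels tie no cell to an animal. The cells of 1 type and 1 stage on 1 of the 6 library plates therefore formed a single sample, with no test and no p-value. Levels are pooled CPM, in which the counts of a gene and of all genes were each summed over a group before scaling. Ratios and shares carry 95% intervals for counting error only, and reads without molecular identifiers are not independent molecules.

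Collagens are sorted by the structures that they build. Fibrillar collagens (types I, II, III, V, XI, XXIV and XXVII) assemble into the banded fibres that give interstitial tissue its tensile strength, and in the ovary types I and III are known as products of stromal and thecal fibroblasts. Type IV collagen forms the meshwork of the basement membrane, which separates the granulosa cells of a follicle from the stroma, together with laminins, nidogens and perlecan. The multiplexins, types XV and XVIII, border on basement membranes, and type XVIII is the precursor of the angiogenesis inhibitor endostatin. Type VI collagen makes beaded filaments, and FACIT collagens decorate the surface of fibrils.

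The genes with a value differed between plates, and this set which collagens could be compared. Of the 44 genes, 14 were listed on all 6 plates and 13 on a single plate. Col1a1 and Col1a2, the chains of type I collagen, were listed on every plate, while Col3a1 was listed on plates 1, 2, 3 and 4 and Col18a1 on plates 1, 2 and 4. Col4a1 had values on plate 6 alone and its partner chain Col4a2 on plate 1 alone, so that the pair was never measured together. Stages, and oocytes with somatic cells, were compared within a plate, while cells with and without stroma markers were compared over the summed counts of the plates that list the gene and hold such cells.

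The labelled cell types carried their defining markers. At least 1 of 10 granulosa markers was read in 182 of 185 somatic cells, with a median summed level of 18543 CPM. Oocyte markers were read in 59 of 59 oocytes, with a median of 16603 CPM. In these lists a marker without values on a plate counted as not read. Nlrp5 had no read in the oocytes, but it had no values on plate 1. Reads of the other cell type were present at low level, with oocyte markers in 116 of 185 somatic cells (median 74.9 CPM) and granulosa markers in 34 of 59 oocytes (median 6.19 CPM). Total counts ranged from 5440 to 801258 per oocyte and from 5150 to 409310 per somatic cell. Stroma markers (Dcn, Lum, Pdgfra, Tcf21, Ogn, Fbln1, Mfap4 and Mfap5) were read in some of the cells labelled as somatic. Of the 185 somatic cells, 121 had reads of none of them, 38 of 1 marker and 26 of at least 2. Oocytes met the same rule, with reads of at least 1 of these markers in 31 of 59 and of at least 2 in 12 of 59, at a median of 3.71 CPM, against 2859 CPM in the 26 somatic cells. The plates listed 5 to 8 of the 8 markers, 5 of them on plate 2. Those 26 cells lay on plates 1 (3 cells), 2 (5 cells), 3 (3 cells) and 5 (15 cells). Of the other lists, surface epithelium markers were read in 71 somatic cells, smooth muscle and pericyte markers in 46, endothelium markers in 39 and immune markers in 22, each with a median of 0 CPM, while theca markers were read in 110, with a median of 481.8 CPM. Myh11, Upk1b, Tyrobp and Cd52 had no read in any somatic cell on the plates with values of them, and Myh11 had no values on plate 1.

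**Figure D1:**
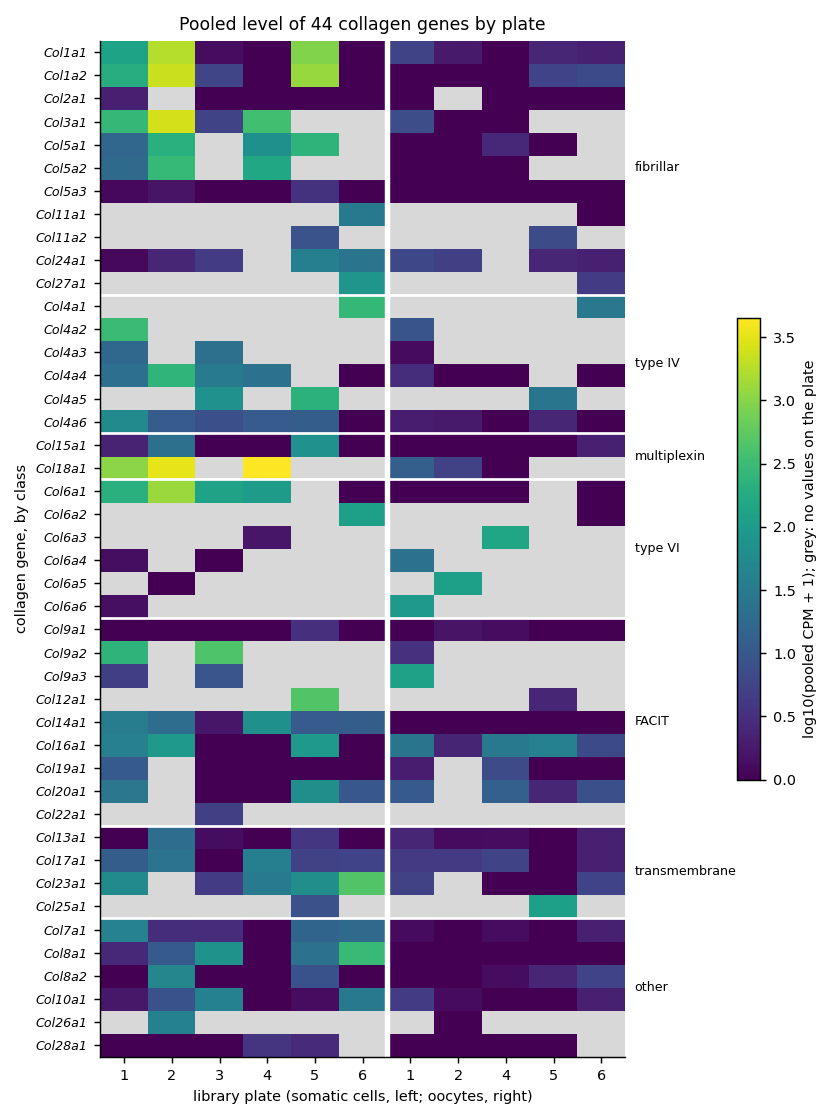
Pooled level of each of the 44 collagen genes (vertical axis, grouped by class) on each library plate (horizontal axis), in somatic cells on the left and in oocytes on the right, coloured by log10 of pooled CPM plus 1; grey means that the gene had no values on the plate. Type I and type III collagens and Col18a1 are the brightest entries in somatic cells, and a few type VI and FACIT genes and Col25a1 are brighter in oocytes than in somatic cells.

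Promoter sequence from RefSeq (GRCm38.p6) was available for 35 of the 44 genes, and 3 are shown as examples of genes that differed between somatic cells and oocytes: Col3a1, a fibrillar chain read in somatic cells, and Col6a3 and Col6a5, chains of type VI collagen read in oocytes. Each run is the 150 bases directly before the annotated start on the gene's strand, and capitals mark a match to the string TATAAA. The Col3a1 window is chr1:45311388-45311537 (plus strand), the Col6a3 window is chr1:90843972-90844121 (minus strand), and the Col6a5 window is chr9:105960644-105960793 (minus strand). 
Col3a1: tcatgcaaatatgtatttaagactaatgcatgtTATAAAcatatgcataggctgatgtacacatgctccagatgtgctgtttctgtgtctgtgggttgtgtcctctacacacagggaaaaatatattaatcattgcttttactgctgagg
Col6a3: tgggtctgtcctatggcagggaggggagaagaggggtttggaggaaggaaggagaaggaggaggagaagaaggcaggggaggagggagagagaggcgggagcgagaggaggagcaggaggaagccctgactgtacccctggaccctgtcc
Col6a5: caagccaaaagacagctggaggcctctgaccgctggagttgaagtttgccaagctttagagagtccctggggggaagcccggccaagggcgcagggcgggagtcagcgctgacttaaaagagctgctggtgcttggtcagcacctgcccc
The Col3a1 window holds TATAAA with its first base 117 bases before the start, and the Col6a3 and Col6a5 windows hold neither TATAAA nor CCAAT on either strand. Over 32851 promoters, 7.57% held TATAAA and 24.5% held CCAAT in the same window on either strand, and of the 38 collagen promoters 4 and 8 did. Some of the 44 genes are neighbours in the genome (GENCODE M21, GRCm38). Col3a1 and Col5a2 are tail to tail on chromosome 1, 24614 bases apart, Col4a1 and Col4a2 are head to head on chromosome 8 and share 22 bases at their starts, and Col6a6, Col6a5 and Col6a4 follow each other on the minus strand of chromosome 9.

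Among the fibrillar collagens, type I was concentrated in few somatic cells. The summed counts of Col1a1 and Col1a2, the α1 and α2 chains of type I collagen, came to 23152, and 49 of 185 somatic cells had a read of either gene. Of these cells, 11 held 90% of the counts, and all 11 had reads of at least 2 stroma markers. The 26 cells with at least 2 stroma markers held 97.2% of the type I counts against 13.4% of all counts. In those 26 cells pooled Col1a1 was 3903 CPM, against 11.1 CPM in the other 131 somatic cells of the same 4 plates, a log2 ratio of 8.46 (95% interval 8.22 to 8.71). Pooled Col1a2 was 5063 CPM against 39.7 CPM, a log2 ratio of 7.00 (6.87 to 7.13). Within plates 1, 2 and 5 the log2 ratios were 7.39, 14.85 (6211 counts against 1, 95% interval 12.37 to 20.15) and 6.38 for Col1a1 and 6.14, 7.47 and 6.03 for Col1a2. Plate 3 stood apart, since its 3 cells with at least 2 stroma markers had 1 type I count in all, against 15 in the other 19 cells. The summed granulosa markers had a median of 1803 CPM in the 26 cells and of 20357 CPM in the others, so that most cells rich in type I collagen were poor in granulosa transcripts. The ranges overlapped, since the 26 cells reached 29791 CPM of granulosa markers, and 3 of the 26 had no granulosa marker read.

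**Figure D2:**
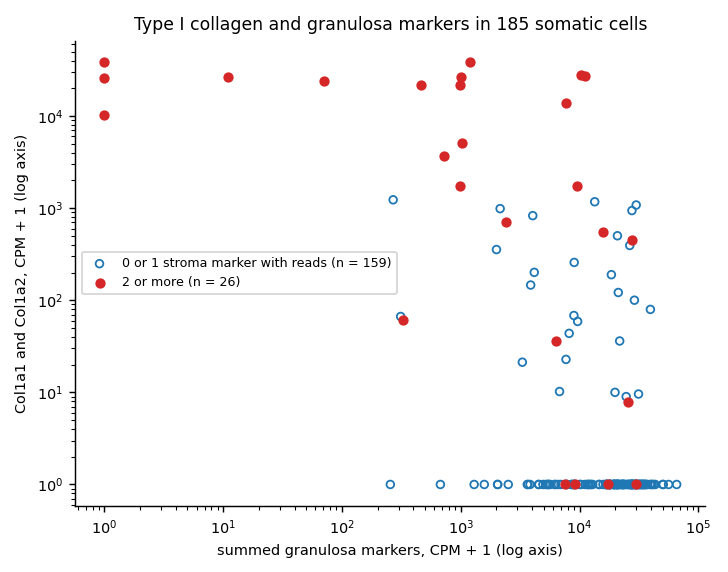
Summed CPM plus 1 of Col1a1 and Col1a2 (vertical, log axis) against the summed CPM plus 1 of the granulosa markers (horizontal, log axis) in each of 185 somatic cells; filled points are the 26 cells with reads of at least 2 stroma markers. The cells highest in type I collagen are all filled points, and most of the open points lie at 0 for type I collagen and high for granulosa markers.

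Col3a1, the single chain of type III collagen, and Col5a2, a chain of the type V collagen that nucleates fibrils, were less confined to those cells. Col3a1 was read in 26 of the 107 somatic cells of its plates, and 9 of those 26 cells also had type I reads; cells without type I reads held 15.9% of the Col3a1 counts. Col5a2 was read in 26 of 85 cells, of which 11 had type I reads, and cells without them held 50.4% of the Col5a2 counts. The share of counts in cells with at least 2 stroma markers was 83.2% for Col3a1 and 42.2% for Col5a2, against 98.6% for Col1a1. The cells that carried Col3a1 had a median of 15891 CPM of granulosa markers, near the 17403 CPM of all somatic cells on these plates. This median weighs each carrier alike, and 7 carriers had at least 2 stroma markers. It also pools plates that listed 5 to 8 granulosa markers. The clearest example of Col3a1 and Col5a2 reads without type I reads was plate 4, where no somatic cell had 2 stroma markers. On that plate Col3a1 was read in 6 of 16 transitioning somatic cells at a pooled 350.3 CPM, Col5a2 in 6 of 16 at 150.3 CPM and Col5a1 in 4 of 16 at 66.9 CPM, and neither type I chain had a read.

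Most somatic cells carried few fibrillar genes. Of the 185 cells, 89 had reads of none, 44 of 1 gene, 30 of 2 and 22 of at least 3, and 17 of those 22 had reads of at least 2 stroma markers. The rarer fibrillar genes were found on few plates. Col11a1 and Col27a1 had values on plate 6 alone, where they and Col24a1 gave all 60 fibrillar counts of the 11 secondary somatic cells; Col27a1 led them at 87.3 CPM in 5 of 11 cells. Col24a1 reached 139.8 CPM in 3 of 19 primary cells of plate 5. Col2a1, the cartilage collagen, had 6 counts in 1 somatic cell of plate 1, and Col11a2 had 25 counts in 6 of 66 cells of plate 5.

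By follicle stage, the fibrillar sum was highest in primordial somatic cells on both plates that held several stages. On plate 1 the 19 primordial cells had 2099 CPM (2027 to 2173), the 8 transitioning cells 53.1 CPM (40.3 to 68.9), the 5 primary cells 57.4 CPM (45.3 to 71.8) and the 5 secondary cells 6.27 CPM (2.87 to 11.9). The log2 ratios to primordial cells were −5.30 (−5.71 to −4.93), −5.19 (−5.54 to −4.87) and −8.39 (−9.52 to −7.46). On plate 5 the 21 primordial cells had 3696 CPM, the 19 primary cells 2087 CPM and the 26 secondary cells 1375 CPM, with log2 ratios of −0.82 (−0.91 to −0.74) and −1.43 (−1.51 to −1.35). These pooled levels came from few cells: on plate 1 a single primordial cell held 52.1% of the fibrillar counts, and the median cell had 0 CPM in the primordial, transitioning and secondary groups. In the primordial group of plate 1 the cells ran from 0 to 8339 CPM, the 2 highest cells had 6 and 4 stroma markers, and the groups overlapped at 0. On plate 5 the highest cells had 27827 CPM (primordial), 40715 CPM (primary) and 29827 CPM (secondary), against medians of 133.3, 0 and 17.6 CPM. Without the highest cell of each group the plate 5 ratios were −1.86 in primary and −2.03 in secondary cells, and on plate 1 the transitioning cells, whose fibrillar counts all came from replicate 1, were then at 0 (a log2 ratio of at most −8.39).

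Without the 26 cells with at least 2 stroma markers, an alternative chosen after seeing the data, the fibrillar log2 ratios to primordial cells on plate 1 were −2.65, −2.54 and −6.47, and on plate 5 they were −1.53 and −1.81. The direction was the same in all 5 comparisons, at a level of 333.6 CPM in primordial cells of plate 1 and 435.6 CPM in those of plate 5. The share of cells with a fibrillar read also moved. It was 85.7% of primordial cells on plate 5 (18 of 21, 95% interval 63.7 to 97.0), 31.6% of primary cells (6 of 19, 12.6 to 56.6) and 50.0% of secondary cells (13 of 26, 29.9 to 70.1). The intervals cover counting of cells within 1 sample and are no test of stage. With every cell thinned to 12000 counts the corresponding numbers were 14 of 21, 5 of 19 and 10 of 25. On plate 1 it was 9 of 19 primordial, 1 of 8 transitioning, 4 of 5 primary and 2 of 5 secondary cells.

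The same groups differed in their markers of cell type, and the part of this in the collagen result was not tested. On plate 1, 6 of 7 stroma markers compared were at least 2-fold lower in transitioning than in primordial cells, where 47.6% of all genes were lower, with a median log2 ratio of −5.48 against −0.84 for all genes. In primary cells 6 of 7 were lower (median −5.90), where 41.6% of all genes were. In secondary cells 6 of 8 stroma markers were lower (median −5.95 against −0.32), where 42% of all genes were, and 5 of 7 granulosa markers were higher (median 2.22), where 33.2% of all genes were. Oocyte markers were lower in 5 of 5 in secondary cells (median −4.13), and surface epithelium markers were lower in 3 of 3 in transitioning cells (−4.65).

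On plate 5, other lists moved further than the stroma markers. Stroma markers had 4 of 7 lower in primary cells (median −1.21) and 6 of 7 in secondary cells (−1.42), where 27.9% and 22.8% of all genes were lower and the medians of all genes were 0.27 and 0.45. Granulosa markers were higher in 5 of 6 in both (medians 3.08 and 2.71), where 34.1% and 35.6% of all genes were higher. Oocyte markers were lower in 4 of 4 and 3 of 4 (−5.25 and −2.89), and surface epithelium markers were higher in 4 of 4 in secondary cells (3.21).

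**Figure D3:**
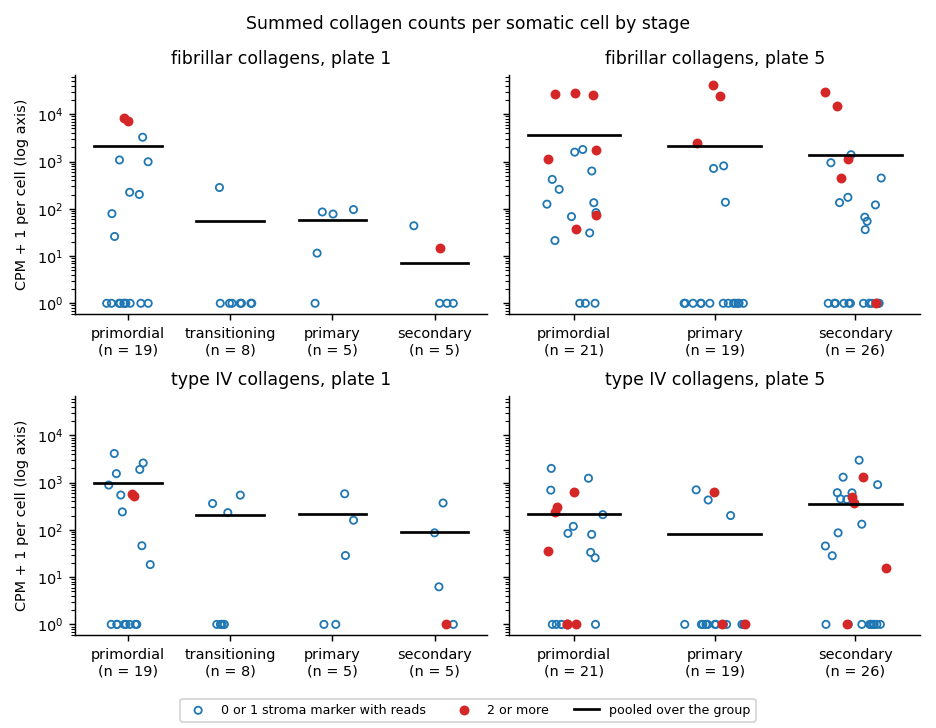
CPM plus 1 per somatic cell (vertical, log axis) of the summed fibrillar collagens (top) and of the summed type IV collagens (bottom) by follicle stage on plates 1 (left) and 5 (right); filled points are cells with reads of at least 2 stroma markers and the black bars are pooled levels. On plate 5 the highest filled points lie far above the remaining cells for fibrillar collagens, and for type IV collagens filled and open points are mixed.

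The type IV chains differed in how far their reads were spread over somatic cells, with 90% of the counts in 24 of 88 cells for Col4a5, 9 of 37 for Col4a2, 8 of 119 for Col4a4 and 6 of 185 for Col4a6. Col4a2, the α2 chain of the widespread type IV network, was read in 16 of 37 somatic cells of plate 1, with pooled levels of 789.6, 179.9, 170.8 and 15.3 CPM from the primordial to the secondary stage. The later stages were 4.39-fold, 4.62-fold and 51.5-fold lower than primordial cells. Col4a5, the X-linked chain, was read in 13 of 21 primordial, 4 of 19 primary and 15 of 26 secondary cells of plate 5, at 217.5, 82.1 and 320.7 CPM. Its log2 ratio to primordial cells was −1.41 (−1.82 to −1.01) in primary and 0.56 (0.33 to 0.79) in secondary cells, so it was lowest in primary cells. Col4a5 was also read in 11 of 22 transitioning cells of plate 3, at 68.8 CPM. Col4a1 was read in 4 of 11 secondary cells of plate 6, at 298.3 CPM.

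Cells with at least 2 stroma markers and other cells differed little in Col4a5 and Col4a2, with log2 ratios of 0.12 (−0.12 to 0.35) and −0.45 (−0.68 to −0.22). The Col4a2 value compared 3 cells, 2 of them with a read, with 34 others on plate 1 alone, and 2 of the 3 were primordial. Col4a6 was lower in cells with at least 2 stroma markers (−1.81, −2.52 to −1.17), with reads in 1 of 26 against 9 of 131 cells. Col4a4 differed from its relatives in the pooled comparison, but of these only Col4a6 also had values on plate 2. Col4a4 had 82.6% of its counts in cells with at least 2 stroma markers. Its pooled log2 ratio between those and other cells was 5.45 (5.18 to 5.73). Within plates 1 and 3 the ratios were 1.06 (0.38 to 1.70) and 2.93 (2.31 to 3.55). Most Col4a4 counts came from 4 of 32 primary cells of plate 2, at 244.8 CPM. A single cell, primary replicate 17, held 48.6% of the Col4a4 counts. Without it, an alternative chosen after seeing the data, that group was at 92.7 CPM and the pooled log2 ratio was 4.32. Col4a3, which lies head to head with Col4a4 at a distance of 71 bases, had values on plates 1 and 3 alone. It was read in 4 of 59 cells, none of them with 2 stroma markers, and only 6 of the 59 cells had 2. Col4a6 was read in 12 of 185 cells, up to 120.6 CPM in the primordial group of plate 1, where 1 cell held all its reads.

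Summed over its listed chains, type IV collagen on plate 1 was 983.5 CPM in primordial cells and 206.0, 220.0 and 87.1 CPM in the 3 later stages. The log2 ratios to primordial cells were −2.26 (−2.47 to −2.05), −2.16 (−2.35 to −1.98) and −3.50 (−3.77 to −3.23), smaller than those of the fibrillar sum on the same plate. On plate 5 the sums in order of stage were 217.5, 82.1 and 350.1 CPM, a log2 ratio of −1.41 (−1.82 to −1.01) and of 0.69 (0.47 to 0.91). Without the highest cell of each group, which in secondary cells of plate 1 was replicate 4, the ratio of those secondary cells was −6.34. The share of cells with a type IV read on plate 5 was 13 of 21, 4 of 19 and 15 of 26, so that primary cells were the lowest in both readouts. The secondary groups differed in direction between plates 1 and 5, and different chains were listed there, Col4a2 on plate 1 and Col4a5 on plate 5.

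Per kilobase of exon, the order of the listed fibrillar and type IV chains changed with stage on plate 1 but not on plate 5. On plate 1 the fibrillar genes had 1.35 times the type IV level in primordial cells, a log2 difference of 0.43 (0.34 to 0.52), and stood below it in transitioning (−2.62, −3.06 to −2.19), primary (−2.60, −2.98 to −2.23) and secondary cells (−4.46, −5.62 to −3.49). On plate 5 fibrillar genes stood above type IV in primordial (2.34), primary (2.92) and secondary cells (0.22, 0.07 to 0.38). Without the cell with the most fibrillar counts in each group, the differences in primordial cells of plate 1 and secondary cells of plate 5 were −0.52 and −1.08. Over other sets of chains, primary cells of plate 2 (3.38) and transitioning cells of plate 4 (2.74) were above 0. Transitioning cells of plate 3 (−3.43) and secondary cells of plate 6 (−1.98) were below it. The plates listed 6 to 8 fibrillar and 2 to 4 type IV genes, so neither the level nor the sign of this difference can be compared between plates. Plate 1 lacked Col4a1 and Col4a5, and plate 5 lacked Col4a1, Col4a2, Col3a1 and Col5a2, so the order of the whole classes was not measured.

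Leaving out the cells with at least 2 stroma markers placed type IV above fibrillar collagens in all 7 groups of plates 1 and 5. The log2 difference was then −2.41 in primordial cells of plate 1, and −1.09 (−1.34 to −0.84), −0.76 (−1.24 to −0.27) and −3.20 (−3.51 to −2.90) in primordial, primary and secondary cells of plate 5. In primary cells of plate 2 it was 3.43 without those 5 cells, and the remaining 27 cells held 1075 fibrillar counts against 37 type IV counts. On plate 2 as on plate 4, Col4a4 and Col4a6 were the only type IV chains with values.

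**Figure D4:**
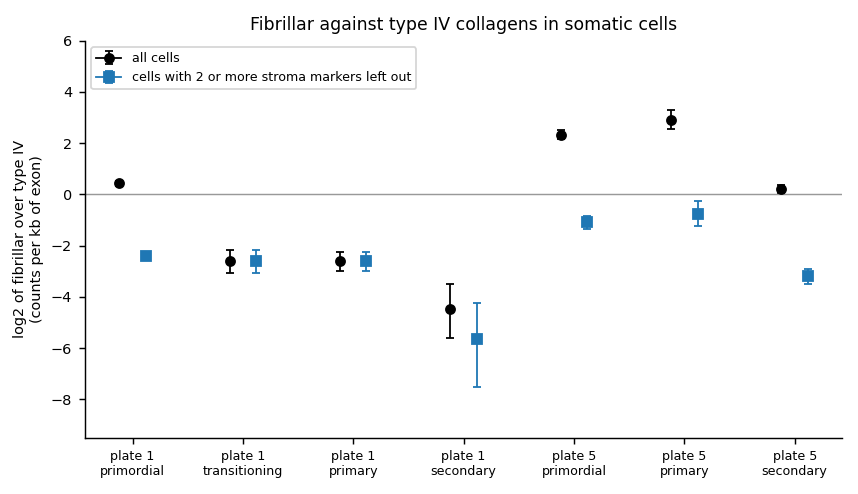
Log2 of fibrillar over type IV collagen counts per kilobase of exon (vertical) in somatic cells by stage on plates 1 and 5; circles are all cells, squares leave out cells with reads of at least 2 stroma markers, and bars are 95% counting intervals. All 7 squares lie below 0, while 4 of the 7 circles lie above it.

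Col18a1, the type XVIII chain, was the most widely carried collagen of the somatic cells. It was read in 69 of 85 somatic cells of its plates, and 42 cells held 90% of its counts. On plate 4 it was read in 16 of 16 transitioning cells, from 984 CPM to 9996 CPM with a median of 3814 CPM, and in 0 of 15 oocytes, so that the groups did not overlap. On plate 2 it was read in 27 of 32 primary cells, at a pooled 3355 CPM. On plate 1 its level hardly moved with stage, with 1044, 1113, 803.8 and 1211 CPM in order of stage. The log2 ratios to primordial cells were 0.09 (−0.02 to 0.20), −0.38 (−0.49 to −0.27) and 0.21 (0.11 to 0.31), and the reads were in 11 of 19, 7 of 8, 3 of 5 and 5 of 5 cells. Opposite to type I, it was lower in cells with at least 2 stroma markers, at 434.4 CPM against 2224 CPM, a log2 ratio of −2.36 (−2.48 to −2.24), and of −1.98 and −2.70 within plates 1 and 2. The other multiplexin, Col15a1, followed type I instead, with 97.8% of its 312 counts in those cells. The annotation of Col18a1 overlaps that of Slc19a1 on the other strand, and how the reads of such regions were assigned is not given in the sources used here.

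Col6a1, the type VI chain read most in somatic cells, went with the stroma markers, at 3016 CPM in cells with at least 2 of them against 69.5 CPM in the others, a log2 ratio of 5.44 (5.33 to 5.55). The log2 ratio was 4.38 within plate 1 and 7.95 within plate 2, and it was −1.37 (−2.08 to −0.74) within plate 3. Col6a1 was read in 14 of 119 cells, 9 of which held 90% of the counts. On plate 1 it was 699.8 CPM in primordial cells, read in 3 of 19, and it was at 0 in transitioning and secondary cells, at least 250-fold and at least 335-fold lower. Of the FACIT genes, Col16a1 went with the stroma markers too, with 72.0% of its counts in those cells, all on plates 2 and 5 but 1 count, while on plate 1 it was 1.37 CPM in those cells and 44.6 CPM in the others. Col12a1 and Col9a2 separated the cells less, with log2 ratios of 0.61 (0.45 to 0.76) and 0.44 (0.29 to 0.59). Col12a1, compared on plate 5 alone, was read in 14 of 15 cells with at least 2 stroma markers and in 26 of 51 others. Within plates 1 and 3 the Col9a2 ratios were 0.88 and −0.07. Col12a1 was read in 18 of 21 primordial, 7 of 19 primary and 15 of 26 secondary cells of plate 5, at 619.8, 428.5 and 330.5 CPM. Col9a2 was read in 19 of 22 transitioning cells of plate 3, at 441.2 CPM, and on plate 1 it was 3.86-fold higher in transitioning than in primordial cells (503.5 against 130.4 CPM). Col14a1 and Col20a1 were read in 19 and 14 somatic cells, up to 81.3 and 144.2 CPM in a stage group. Of the transmembrane and other genes, Col23a1 was read in 35 of 153 cells, with its highest group of at least 5 cells the secondary cells of plate 6 at 356.5 CPM (6 of 11 cells). Col8a1, a short-chain collagen, was read in 21 of 185 cells and reached 327.4 CPM in the same group, where 4 of 11 cells carried it. Col26a1, Col8a2 and Col13a1 had 139 of 139, 195 of 195 and 77 of 78 counts in cells with at least 2 stroma markers.

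Counted as genes, collagens were mostly lower in later stages, against a background in which most genes passed the same fold. A gene entered a comparison with at least 5 CPM in either group and counted when it differed at least 2-fold. On plate 1, 16 of 19 collagens passed in transitioning against primordial cells (3 higher, 13 lower), where 75.8% of all genes did (28.2% higher and 47.6% lower). In primary cells 16 of 20 passed (3 higher, 13 lower), against 73.5% of all genes (32% higher and 41.6% lower). In secondary cells 15 of 19 passed (1 higher, 14 lower), against 75.3% (33.2% higher and 42% lower). On plate 5, 14 of 18 passed in primary cells (2 higher, 12 lower), against 62.0% of all genes (34.1% higher and 27.9% lower), and 16 of 21 in secondary cells (4 higher, 12 lower), against 58.4% (35.6% higher and 22.8% lower). The share of collagens past 2-fold was thus near the background on plate 1, and the share that was lower was above it in all 5 comparisons. The median log2 ratio of the tested collagens was −4.32, −3.47 and −4.74 on plate 1 and −1.55 and −1.31 on plate 5, against −0.84, −0.33, −0.32, 0.27 and 0.45 for all genes. Scaling moved the background: in primary cells of plate 5 the median of all genes was −0.23 with TMM factors (1 collagen higher and 14 lower) and 0.83 with CPM over the genes listed on every plate (2 higher and 7 lower). A gene could enter through 1 group alone, and groups at 0 were set at 3 counts, so the calls and medians include bounds. In transitioning cells of plate 1, Col5a1, Col4a3, Col4a6, Col17a1 and Col7a1 were called lower from reads in 1 of 19 primordial and 0 of 8 transitioning cells. Col5a2 and Col19a1 were called higher there from reads in 1 of 8 transitioning cells. The comparisons on a plate share their primordial cells.

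The genes whose products modify and cross-link collagen were compared in the same way. On plate 1, where 47.6%, 41.6% and 42% of all genes were lower in transitioning, primary and secondary cells and 28.2%, 32% and 33.2% were higher, 10 collagen maturation genes (prolyl and lysyl hydroxylases, chaperones, propeptidases and lysyl oxidases) could be compared. In transitioning cells 0 were higher and 8 lower (median log2 ratio −2.07 against −0.84 for all genes), in primary cells 1 was higher and 4 lower (−0.15 against −0.33), and in secondary cells 2 were higher and 5 lower (−0.93 against −0.32). On plate 5, 1 of 9 was higher and 4 lower in primary cells (−0.87 against 0.27), where 34.1% of all genes were higher and 27.9% lower. In secondary cells of that plate 2 of 10 were higher and 3 lower (−0.50 against 0.45), where 35.6% and 22.8% of all genes were.

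Between cells with and without stroma markers the maturation genes went both ways. Adamts14, a propeptidase of fibrillar procollagens, was 138.2 CPM in cells with at least 2 stroma markers and 0.39 CPM in the others. The cross-linking oxidase gene Lox was 101.2 against 10.5 CPM. On plates 1 and 3 Adamts14 had no read in either group. Lox was 6.83 against 8.62 CPM on plate 1, and 0 against 14 counts on plate 3. Bmp1, which encodes another procollagen propeptidase, was 109.7 against 532.9 CPM, a log2 ratio of −2.28, and the log2 ratios of Plod1 (a lysyl hydroxylase), P4ha1 (a prolyl hydroxylase subunit) and Serpinh1 (the collagen chaperone HSP47) were −1.71, −1.10 and −1.02. Bmp1 was compared on plates 1 and 2 (8 cells against 61), Plod1 on plates 1 and 3 (6 against 53) and P4ha1 on plate 5 alone (15 against 51). Serpinh1 was compared on plate 3 alone, with 18 counts in 3 cells with at least 2 stroma markers against 243 in 19 others. Those 3 cells had 1 count of Col1a1 and 0 of Col1a2, so the Serpinh1 comparison held no cell rich in type I collagen. These 6 genes were chosen after their values were seen.

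Basement membrane partners of type IV collagen (laminins, nidogens, Hspg2 and Agrn) had 1 higher and 3 lower of 6 in transitioning cells of plate 1 (median −1.07), near the background of all genes given above. In primary and secondary cells of that plate 0 were higher and 5 lower of 6 (medians −2.33 and −2.92), against 41.6% and 42% of all genes lower. On plate 5, where medians of all genes were 0.27 and 0.45, they had 2 higher and 0 lower of 4 in primary cells (1.22) and 1 higher and 1 lower of 4 in secondary cells (0.48). Lama1, the laminin α1 chain, was 792.8 CPM in cells with at least 2 stroma markers and 1083 CPM in the others. Nid2, which encodes a nidogen, was 245.4 against 11.4 CPM, but on plate 3 it had 0 counts in cells with at least 2 stroma markers and 53 counts in the others.

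Of the collagen receptors, 3, 4 and 2 could be compared in the 3 later stages of plate 1, and 1, 3 and 1 were higher and 1, 1 and 0 lower. On plate 5, 1 of 3 was higher and 2 lower in primary cells, and 2 of 4 were higher and 1 lower in secondary cells. Matrix proteases and their inhibitors had 0, 1 and 0 higher and 4, 1 and 4 lower of 5 on plate 1, and 1 higher and 1 lower of 2 in both later stages of plate 5. These numbers are small against backgrounds of 28.2% to 35.6% of all genes higher and 22.8% to 47.6% lower.

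The genes whose levels were most like the fibrillar sum across 185 somatic cells, after subtracting plate means, were Dcn (Pearson r 0.61), Sparcl1 (0.56), Igfbp4 (0.54), Flnc (0.53), Tcf21 (0.53), Pltp (0.53), Cdh11 (0.52), Glipr2 (0.50), Acta2 (0.50) and Enpep (0.49). For type IV collagens the likeness was weaker, led by Cd24a (0.35), Acta2 (0.31) and Rap2a (0.30). The cells share plates and differ in depth, and these values are descriptions.

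In oocytes, fibrillar and type IV collagens were near the lower limit of counting. The fibrillar sum over all oocytes of a plate was 16.3 CPM on plate 1, 4.86 CPM on plate 2, 1.52 CPM on plate 4, 13.2 CPM on plate 5 and 11.2 CPM on plate 6, against 622.6, 7169, 567.5, 2450 and 131.9 CPM in the somatic cells of the same plates. The log2 ratios were −5.26 (−5.67 to −4.88), −10.53 (−11.31 to −9.85), −8.54 (−10.17 to −7.32), −7.54 (−8.67 to −6.61) and −3.56 (−4.69 to −2.58). Type IV collagens had log2 ratios of −5.17 (−5.68 to −4.71) on plate 1, −8.22 (−10.50 to −6.67) on plate 2, −3.15 (−3.91 to −2.48) on plate 5 and −3.27 (−3.95 to −2.64) on plate 6, and on plate 4 they had 0 counts in oocytes, at least 36.2-fold lower. Both classes were lower in oocytes on all 5 plates. Without the cells with at least 2 stroma markers the fibrillar ratios were −2.80 on plate 1, −6.26 on plate 2 and −4.12 on plate 5. The somatic fibrillar level on plate 6 came from Col11a1, Col24a1 and Col27a1, and for types I, III and V alone that plate had 0 somatic counts and a ratio bound near 0 (0.028). On plate 1 the 7 primary oocytes had 0 fibrillar counts against 56 in 5 primordial oocytes (at least 13.1-fold lower), and type IV had a log2 ratio of −0.25 (−1.36 to 0.80), which was 3.33 without the highest cell of each group; 11 of 15 collagens compared passed 2-fold (3 higher, 8 lower), against 49.3% of all genes (15.2% higher and 34.1% lower).

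As genes, collagens were lower in oocytes in 18 of 23 on plate 1 and higher in 4, where 70.1% of all genes passed 2-fold (43.2% lower and 26.9% higher). On plate 2 they were lower in 18 of 19 and higher in 1 (84.1%, with 60.9% lower and 23.2% higher), on plate 4 lower in 10 of 14 and higher in 4 (81.2%, with 54.2% lower and 26.9% higher), on plate 5 lower in 15 of 17 and higher in 1 (69.4%, with 47.8% lower and 21.6% higher), and on plate 6 lower in 10 of 13 and higher in 0 (72.4%, with 51.1% lower and 21.4% higher). The genes that were higher in oocytes were mostly type VI and FACIT chains. Most were read in at least 8 oocytes of their plate, but Col24a1 was read in 2 of 13 oocytes of plate 1 (18 counts, against 1 in somatic cells) and Col19a1 in 1 of 15 oocytes of plate 4 (19 counts, against 0).

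Col6a3, the α3 chain of type VI collagen, was read in 14 of 15 transitioning oocytes of plate 4, from 0 to 371.1 CPM with a median of 136.0 CPM, and in 1 of 16 somatic cells, at 7.15 CPM. The pooled levels were 138.6 and 0.65 CPM, a log2 ratio of 7.74 (5.88 to 10.79) from 455 against 2 counts. Col6a5 was read in 8 of 8 oocytes of plate 2, from 31.4 to 1007 CPM with a median of 99.3 CPM, and in 0 of 32 somatic cells, so that the groups did not overlap and oocytes were at least 134-fold higher. Col6a6 was read in 12 of 13 oocytes of plate 1, with a median of 73.6 CPM, and in 1 of 37 somatic cells, a log2 ratio of 7.97 (6.10 to 11.02). Col6a4 was read in 8 of 13 oocytes and 1 of 37 somatic cells of that plate, a log2 ratio of 5.91 (4.01 to 8.98). Col6a4, Col6a5 and Col6a6 encode related chains, and how reads shared by them were counted is not given in the sources used here. The chain Col6a1, which type VI filaments contain, had 0 counts in oocytes of plates 1, 2 and 4, and Col6a2 had 0 counts in those of plate 6.

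Col9a3, a chain of the FACIT collagen IX, had 416 counts in 9 of 13 oocytes of plate 1 and 20 counts in 1 of 37 somatic cells, a log2 ratio of 5.02 (4.37 to 5.75); its annotation overlaps that of Tcfl5 on the other strand. Its partner Col9a2 ran the other way, at 2.32 CPM in oocytes and 238.3 CPM in somatic cells. Col25a1, a transmembrane collagen, was read in 4 of 4 primary, 5 of 5 secondary and 0 of 1 primordial oocytes of plate 5 and in 7 of 66 somatic cells, with pooled levels of 115.9 and 7.00 CPM and a log2 ratio of 4.05 (3.36 to 4.79). The highest somatic cell, at 268.3 CPM, lay above the highest oocyte, at 253.8 CPM, so the groups overlapped. On plate 4, Col16a1 was read in 8 of 15 oocytes and Col20a1 in 9 of 15, and neither had a read in 16 somatic cells, at least 30.0-fold and at least 12.5-fold higher in oocytes; on plates 2 and 5 Col16a1 was lower in oocytes (log2 ratios of −6.03 and −1.24). Col20a1 was lower in oocytes of plate 1 (−1.45, −2.03 to −0.90) and plate 5 (−5.40, from 1 count against 204, with an interval of −10.71 to −2.91).

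Depth bears on shares of cells with a read, and the median total of primordial oocytes was 488778 counts on plate 1 and 507662 counts on plate 2, against 63071 counts in primordial somatic cells of plate 1 and 100363 counts in primary somatic cells of plate 2. Thinned to 12000 counts, Col6a3 was still read in 10 of 14 oocytes, Col6a5 in 5 of 7 primordial oocytes, Col25a1 in 5 of 5 secondary oocytes and Col6a6 in 2 of 5 primary oocytes. Col16a1 was then read in 3 of 14 and Col20a1 in 1 of 14 transitioning oocytes of plate 4. For Col6a6, Col16a1 and Col20a1 the carried share was thus not resolved at that depth.

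**Figure D5:**
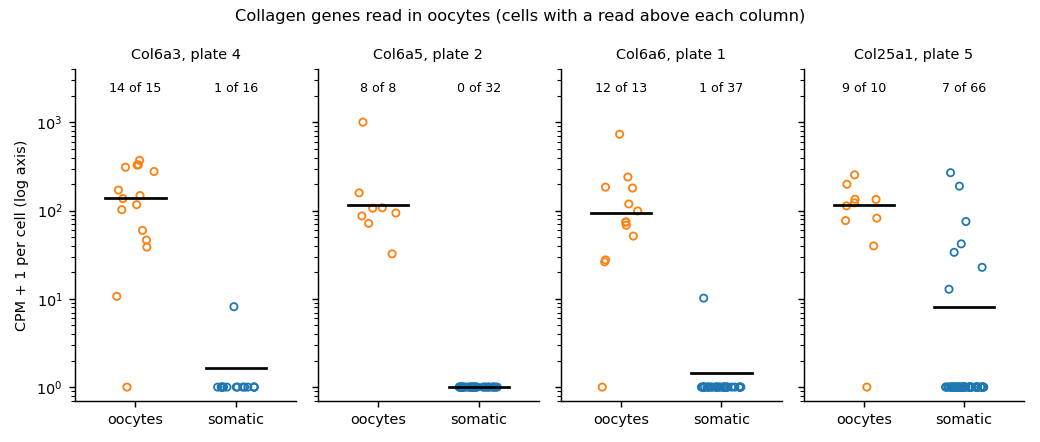
CPM plus 1 per cell (vertical, log axis) of Col6a3 on plate 4, Col6a5 on plate 2, Col6a6 on plate 1 and Col25a1 on plate 5, in oocytes and somatic cells; black bars are pooled levels and the numbers above give the cells with a read. Oocytes with reads stand above nearly all somatic cells for the 3 type VI genes, and for Col25a1 the highest somatic cells overlap the oocytes.

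The remaining members had few reads. Of the 44 genes, 22 were read in at least 10 somatic cells and 14 in at least 5 oocytes, 14 were read in 1 to 4 somatic cells, Col6a5 in none, 10 had values but no read in oocytes, and 0 had no read in any cell. Col22a1 had values on plate 3 alone, which held no oocytes. Several were abundant in a few cells alone. Col7a1, the anchoring fibril collagen, was 99.6 CPM in primordial somatic cells of plate 1, all from 1 of 19 cells. Col6a2, a partner chain of Col6a1, was 128.5 CPM in 2 of 11 secondary cells of plate 6. Col19a1 was 48.5 CPM in 1 of 8 transitioning cells of plate 1, and Col10a1 was 39.8 CPM in 1 of 22 transitioning cells of plate 3. The annotation of Col10a1 lies wholly within that of Nt5dc1, a protein-coding gene on the other strand. Col17a1, a collagen of hemidesmosomes, was 36.7 CPM in 2 of 16 transitioning cells of plate 4. Col5a3, Col9a1, Col22a1 and Col28a1 stayed at or below 5.73 CPM in every somatic group.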

How the data were processed

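Single-cell libraries were made by SMART-Seq2 from staged oocytes and somatic cells. By their methods, the authors aligned the reads to GRCm38 with public workflows, removed cells with few genes and cells that scored for the other cell type, and kept protein-coding genes. The authors deposited a table of estimated counts per gene and cell, of which 17.2% of the values above 0 were not whole. The counter is not given in the sources used here, and the submitters' processing notes name mm10 and Seurat 4. A deposited metadata table gives the plate, the stage and a fraction of reads on ribosomal RNA per cell, which entered no comparison. Blanks in the count table were read as no value on that plate, and 27 entries named as dates (0.0743% of counts) were left out. Stage followed the sample titles, from which the metadata differ for 2 somatic cells of plate 1.

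Counts in each group of at least 5 cells were added up, rounded to whole counts and divided by the total of all genes. Comparisons of all oocytes of a plate with all its somatic cells used every stage. Intervals at the 95% level were exact Poisson (sums), Clopper-Pearson (shares) and a binomial split of the summed counts (ratios). A group at 0 was set at 3 counts over the group for a bound. Per-kilobase values used the union of exons of the GENCODE M21 basic annotation. A collagen was to be named with its own values when at least 10 somatic cells or 5 oocytes had a read or a group of at least 5 cells reached 20 CPM. The members and lists were chosen with earlier results of these data known. Alternatives were median-of-ratios factors of DESeq2 1.42.0, TMM scaling in edgeR 4.0.16, CPM over genes listed on every plate, the mean over cells, thinning to 12000 counts, leaving out cells, other gene sets per class, and other fold, CPM and read limits. R 4.3.3, Python 3.11.15, numpy 2.4.6, pandas 2.3.3, scipy 1.17.1 and matplotlib 3.10.9 were used, and the comparison of sums was tested on simulated data.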

Additional observations from a re-analysis of the deposited data

Results flagged for a closer look

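Of 24 sets of values examined, each for a gene or class in a group of 4 to 10 cells, 11 had a highest cell whose gap to the nearest of the others was large against the group's whole range (Dixon's criterion). Chance sets apart about 1 in 20 groups of normally distributed values. These are sparse counts, and where all other cells are at 0 the criterion is met by construction, so the 11 cannot be set against that rate. The cells are single libraries, and no cause was tested. In somatic cells of plate 1, the fibrillar collagens reached 280.6 CPM in transitioning replicate 1, where the other 7 cells were at 0. Type IV collagens reached 578.8 CPM in primary replicate 4 (next 158.8 CPM) and 369.2 CPM in secondary replicate 4 (next 85.4 CPM). Col18a1 reached 5522 CPM in transitioning replicate 47 (next 2580 CPM), which is also a cell whose stage differs between its title and the metadata. In oocytes of plate 1, type IV collagens reached 42.8 CPM in primordial replicate 3 (next 1.80 CPM) and Col6a6 reached 733.5 CPM in primary replicate 4 (next 183.8 CPM). Primordial oocyte replicate 12 of plate 2 stood apart at 107.4 CPM of fibrillar collagens (next 5.52 CPM) and 1007 CPM of Col6a5 (next 158.3 CPM). Primary oocyte replicate 17 of plate 6 did so in fibrillar collagens, at 27.4 CPM (next 7.16 CPM), and in type IV collagens, at 109.4 CPM (next 23.8 CPM). Primary oocyte replicate 9 of plate 5 had 10.2 CPM of fibrillar collagens from 1 count, where the other 3 cells of its group were at 0.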

How the results depend on the processing

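No paired analysis was possible because no result came from a test and the labels name no animal that would pair groups. Depth and the number of cells limit these values, since each group was a single sample, several oocyte sums rest on fewer than 10 counts, and in some groups a single cell held most counts of a class. Over the compared values and alternatives, 282 values stayed within the counting interval of the reported value (within 1.5 times for numbers of genes), 131 moved further and 3 turned direction. Under every alternative, the fibrillar and type IV ratios of later to primordial somatic cells kept their sign on plates 1 and 5. The ratios of oocytes to somatic cells stayed below 0 for both classes except for fibrillar collagens on plate 6 with types I, III and V alone, where somatic cells had 0 counts. The per-kilobase difference turned in primordial and primary cells of plate 5 without the cells with stroma markers. Values under 2-fold changed sign under some settings for the per-kilobase difference in primordial cells of plate 1 and secondary cells of plate 5 and for type IV collagens of primary against primordial oocytes. Apart from settings that leave out cells or genes, the cause of the shifts was not tested.

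With the mean of single-cell CPM, the somatic fibrillar log2 ratio to primordial cells was −4.39 in primary cells (plate 1), −6.63 in secondary cells (plate 1), −0.22 in primary cells (plate 5) and −1.14 in secondary cells (plate 5), while the somatic type IV log2 ratio to primordial cells was −2.89 in secondary cells (plate 1), and the per-kilobase log2 difference of fibrillar and type IV collagens was −2.18 in primary cells (plate 1), 0.048 in primordial cells (plate 1), 3.39 in primary cells (plate 5) and 0.59 in secondary cells (plate 5). There, the fibrillar log2 ratio of oocytes to somatic cells was −8.85 on plate 2, and the type IV log2 ratio of oocytes to somatic cells was −4.10 on plate 5 and −2.37 on plate 6. In addition, the type IV log2 ratio of primary to primordial oocytes was 0.92 on plate 1. With TMM factors of edgeR, the somatic fibrillar log2 ratio to primordial cells was −1.32 in primary cells (plate 5) and −1.80 in secondary cells (plate 5), while the somatic type IV log2 ratio to primordial cells was −1.90 in primary cells (plate 5) and 0.32 in secondary cells (plate 5), and the fibrillar log2 ratio of oocytes to somatic cells was −9.36 on plate 2. With this choice, the type IV log2 ratio of oocytes to somatic cells was −4.43 on plate 4 and −2.46 on plate 6, and the fibrillar log2 ratio of primary to primordial oocytes was −3.21 on plate 1. With median-of-ratios factors of DESeq2, the somatic fibrillar log2 ratio to primordial cells was −1.31 in primary cells (plate 5) and −1.78 in secondary cells (plate 5), while the somatic type IV log2 ratio to primordial cells was −1.89 in primary cells (plate 5) and 0.33 in secondary cells (plate 5), and the fibrillar log2 ratio of oocytes to somatic cells was −9.16 on plate 2. Under the same setting, the type IV log2 ratio of oocytes to somatic cells was −4.21 on plate 4 and −2.30 on plate 6, and the fibrillar log2 ratio of primary to primordial oocytes was −3.22 on plate 1. With CPM over the genes listed on every plate, the somatic fibrillar log2 ratio to primordial cells was −4.65 in primary cells (plate 1), −0.23 in primary cells (plate 5) and −0.94 in secondary cells (plate 5), while the somatic type IV log2 ratio to primordial cells was −1.62 in primary cells (plate 1), −2.92 in secondary cells (plate 1), −0.81 in primary cells (plate 5) and 1.17 in secondary cells (plate 5), and the number of collagens past the fold against primordial cells was 9 in primary cells (plate 5). With cells thinned to 12000 counts, the somatic fibrillar log2 ratio to primordial cells was −5.93 in transitioning cells (plate 1), −6.25 in secondary cells (plate 1), −0.22 in primary cells (plate 5) and −1.11 in secondary cells (plate 5), while the somatic type IV log2 ratio to primordial cells was −2.76 in transitioning cells (plate 1) and −1.95 in primary cells (plate 1), and the per-kilobase log2 difference of fibrillar and type IV collagens was −3.12 in primary cells (plate 1), 0.19 in primordial cells (plate 1), −2.66 in secondary cells (plate 1), 3.61 in primary cells (plate 5) and 0.57 in secondary cells (plate 5). There, the fibrillar log2 ratio of oocytes to somatic cells was −6.32 on plate 1, −8.44 on plate 2 and at most −4.98 on plate 4, and the type IV log2 ratio of oocytes to somatic cells was −4.65 on plate 1, at most −2.82 on plate 2, at most −0.22 on plate 4 and −2.29 on plate 6. In addition, the number of collagens past the fold against primordial cells was 10 in primary cells (plate 1), and the share of cells with reads was 25% (fibrillar, plate 1 primordial oocytes), 0% (type IV, plate 1 primordial oocytes), 14.3% (fibrillar, plate 2 primordial oocytes), 0% (type IV, plate 2 primordial oocytes), 0% (fibrillar, plate 4 transitioning oocytes), 0% (type IV, plate 5 secondary oocytes) and 0% (fibrillar, plate 6 primary oocytes). Without the 2 cells of conflicting stage, the somatic fibrillar log2 ratio to primordial cells was −4.74 in primary cells (plate 1), while the somatic type IV log2 ratio to primordial cells was −1.76 in primary cells (plate 1), and the share of cells with reads was 100% (fibrillar, plate 1 primary somatic cells). With types I, III and V alone, the somatic fibrillar log2 ratio to primordial cells was −0.93 in primary cells (plate 5), while the per-kilobase log2 difference of fibrillar and type IV collagens was −2.22 in primary cells (plate 1), 0.83 in primordial cells (plate 1), 3.59 in primary cells (plate 5), 3.11 in primordial cells (plate 5) and 1.0 in secondary cells (plate 5), and the fibrillar log2 ratio of oocytes to somatic cells was −5.82 on plate 1, −13.03 on plate 2, −8.68 on plate 5 and at least 0.028 on plate 6. With this choice, the fibrillar log2 ratio of primary to primordial oocytes was at most −3.16 on plate 1. With the multiplexins added to type IV, the somatic type IV log2 ratio to primordial cells was −0.62 in transitioning cells (plate 1), −0.98 in primary cells (plate 1), −0.64 in secondary cells (plate 1) and 0.32 in secondary cells (plate 5), while the per-kilobase log2 difference of fibrillar and type IV collagens was −4.34 in primary cells (plate 1), −0.12 in primordial cells (plate 1), −7.87 in secondary cells (plate 1), −4.81 in transitioning cells (plate 1) and 0.54 in secondary cells (plate 5), and the type IV log2 ratio of oocytes to somatic cells was −5.97 on plate 1. Without the highest cell of each group, the somatic fibrillar log2 ratio to primordial cells was at most −8.39 in transitioning cells (plate 1), −4.83 in primary cells (plate 1), −1.86 in primary cells (plate 5) and −2.03 in secondary cells (plate 5), while the somatic type IV log2 ratio to primordial cells was −2.50 in transitioning cells (plate 1), −3.21 in primary cells (plate 1), −6.34 in secondary cells (plate 1) and 1.01 in secondary cells (plate 5), and the per-kilobase log2 difference of fibrillar and type IV collagens was −3.26 in primary cells (plate 1), −0.52 in primordial cells (plate 1), −5.63 in secondary cells (plate 1), −5.87 in transitioning cells (plate 1), 1.21 in primary cells (plate 5), 1.65 in primordial cells (plate 5) and −1.08 in secondary cells (plate 5). Under the same setting, the fibrillar log2 ratio of oocytes to somatic cells was −4.78 on plate 1, and the type IV log2 ratio of oocytes to somatic cells was −5.78 on plate 1, at most −3.75 on plate 4, −5.80 on plate 5 and −2.58 on plate 6. In addition, the fibrillar log2 ratio of primary to primordial oocytes was at most −1.94 on plate 1, and the type IV log2 ratio of primary to primordial oocytes was 3.33 on plate 1. Without the 26 cells with at least 2 stroma markers (chosen after seeing the data), the somatic fibrillar log2 ratio to primordial cells was −2.65 in transitioning cells (plate 1), −2.54 in primary cells (plate 1), −6.47 in secondary cells (plate 1), −1.53 in primary cells (plate 5) and −1.81 in secondary cells (plate 5), while the somatic type IV log2 ratio to primordial cells was −2.35 in primary cells (plate 1), −1.85 in primary cells (plate 5) and 0.30 in secondary cells (plate 5), and the per-kilobase log2 difference of fibrillar and type IV collagens was −2.41 in primordial cells (plate 1), −5.63 in secondary cells (plate 1), −0.76 in primary cells (plate 5), −1.09 in primordial cells (plate 5) and −3.20 in secondary cells (plate 5). There, the fibrillar log2 ratio of oocytes to somatic cells was −2.80 on plate 1, −6.26 on plate 2 and −4.12 on plate 5, and the type IV log2 ratio of oocytes to somatic cells was −3.90 on plate 2. In addition, the number of collagens past the fold between oocytes and somatic cells was 11 on plate 2. With 3 reads required, the share of cells with reads was 28.6% (fibrillar, plate 2 primordial oocytes), 0% (type IV, plate 2 primordial oocytes), 0% (type IV, plate 5 secondary oocytes) and 0% (fibrillar, plate 6 primary oocytes). At 4-fold, the number of collagens past the fold against primordial cells was 8 in primary cells (plate 5) and 9 in secondary cells (plate 5). With at least 20 CPM, the number of collagens past the fold against primordial cells was 9 in secondary cells (plate 5).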
